A study of Homo sapiens with 2 samples.

Results

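The genes described here belong to fatty acid metabolism and to the pathway of the peroxisome proliferator-activated receptors (PPARs). They were taken from the authors' deposited table of KEGG pathways. It lists genes called changed in the human hepatocellular carcinoma line SNU-449 after 24 h with ezetimibe, against control cells of the same line. Whether the control cells received a vehicle is not given here. Members were the genes listed under Fatty acid metabolism, Fatty acid biosynthesis, Fatty acid elongation, Fatty acid degradation, Biosynthesis of unsaturated fatty acids or PPAR signaling pathway. Genes also listed under any of 7 pathways of glycolysis, pyruvate, steroid, terpenoid, cholesterol or bile metabolism were left out. This gave 36 members of the 2238 genes that the authors' deposited table lists as changed.

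Ezetimibe blocks the sterol transporter NPC1L1. There was 1 ezetimibe library and 1 control library, both from total RNA of cells grown in medium with serum. Without replicates no difference could be checked, and no test was made. The authors' deposited table gives each changed gene a direction, up or down, and no level or fold change. The comparison names ezetimibe before control, and up was therefore taken to mean higher after the drug, although the table holds no level that could verify it. Nor can the table show whether the cells express the defining markers of their tissue: of 10 hepatocyte markers it lists 4 (CPS1, FGA, FGB and FGG), all as down. It lists none of 6 adipocyte markers, 3 of 5 fibroblast markers, all as down (ACTA2, COL1A1 and COL1A2), and 2 of 5 macrophage markers, CD68 as up and CD14 as down. Of the 8877 pathway genes in the table's background 25.2% were listed, and of all listed genes 67.5% were down. In bulk RNA of 1 cell line, fewer cells that express a gene and less RNA per cell cannot be told apart. The markers do not count cells of other types. Sequencing depth is unknown.

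Fatty acids enter a cell through transport proteins or by diffusion and are activated to acyl-CoA before any further use. Acyl-CoA is then lengthened and desaturated in the endoplasmic reticulum, stored in lipid droplets, or moved into mitochondria by the carnitine shuttle and shortened by beta-oxidation. PPARs are nuclear receptors that bind fatty acids, pair with retinoid X receptors and turn on many genes of uptake, storage and oxidation. In the liver, PPAR alpha is the main form and is best known for the response to fasting.

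After ezetimibe, 8 of the 36 members were listed as up and 28 as down. That is a share up of 22.2%, with an exact Clopper-Pearson 95% interval of 10.1 to 39.2 that covers counting among genes only. Over all 2238 genes in the authors' deposited list, 728 were up, a share of 32.5%, and 1510 were down. The members' share lay below this value, and the interval included it. In the 5 fatty acid pathways without PPAR signaling, 3 of 25 members were up (12.0%, interval 2.55 to 31.2), and among members under 2 or more of the 6 pathways 2 of 20 were (10.0%, interval 1.23 to 31.7). The intervals of these 2 smaller sets did not include 32.5%. All 20 genes of the second set are among the 25 of the first, so these are not separate results. Each interval treats genes as independent draws, and no test is read from it. Both intervals included 29.7%, the share up among listed genes in KEGG metabolism pathways (183 of 616), so the contrast depended on the reference. The table's background holds 8877 pathway genes, of which 25.2% were listed as changed, 8.20% as up and 17.0% as down. Being listed as changed is what chose the members, so their number is not read against these shares. For the gene lists below, the shares over all genes are the 25.2% listed and, of listed genes, the 67.5% down.

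Among the 8 members listed as up were ACADS, ACADVL, SLC27A1, SLC27A4, OLAH, PLIN2 and MMP1. The map of members and pathways shows them in few rows each. Of the 16 members under 3 or 4 of the 6 pathways, all were down. Of the 4 members under 2 pathways, 2 were up and 2 down, and of the 16 under 1 pathway, 6 were up and 10 down. All 10 members shared by PPAR signaling and a fatty acid pathway were down. Of the 11 members under PPAR signaling and no fatty acid pathway of the rule, 5 were up and 6 down. Of all listed genes 67.5% were down. The members under 2 or more pathways are the same 20 that are under Fatty acid metabolism (2 up and 18 down). That pathway repeats genes of the other rows, so the number of pathways is not a trait separate from it.

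**Figure D1:**
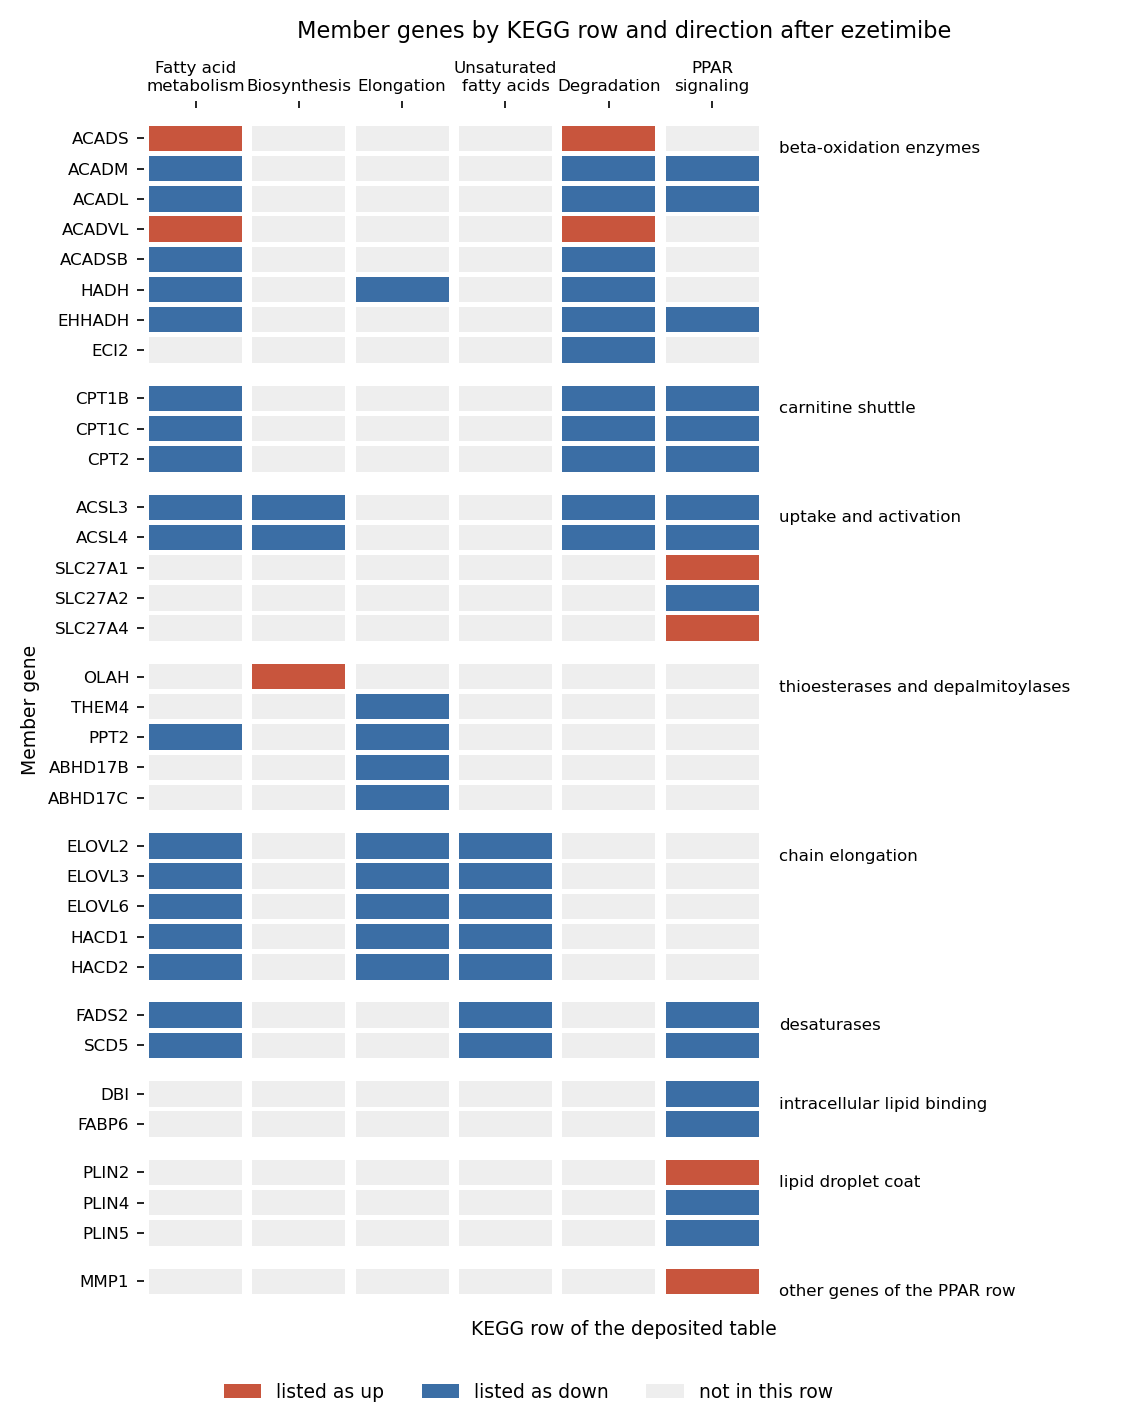
Each line is a member, 34 of the 36 in all, grouped by role, and each column is 1 of the 6 KEGG rows of the deposited table. Red marks a gene listed as up after ezetimibe, blue a gene listed as down and grey a gene not in that row; the elongation, desaturase and carnitine groups hold blue cells only.

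Uptake and activation had 2 members up and 3 down. The members here were 3 fatty acid transport proteins of the SLC27A family and 2 long-chain acyl-CoA synthetases. SLC27A1 (ENSG00000130304; chromosome 19, 17468769 to 17506168, GENCODE release 29 on GRCh38), which carries long-chain fatty acids into muscle and fat cells, was listed as up. SLC27A4 (ENSG00000167114; chromosome 9, 128340646 to 128361470), the family member known from skin and gut, was also up. SLC27A2 (ENSG00000140284; chromosome 15, 50182196 to 50236395), which activates very long-chain fatty acids and is abundant in liver, was down. Both synthetases were down: ACSL3, which activates fatty acids for lipid droplet growth, and ACSL4, which prefers arachidonic acid and shapes the phospholipids attacked in ferroptosis. No other gene of a list of 9 uptake genes was listed, CD36, LPL and OLR1 included. Of 10 genes on a list of acyl-CoA synthetases, 3 were listed, all as down, and the one that is no member was ACSM3, a synthetase for medium-chain fatty acids. Of all background genes 25.2% were listed, and of all listed genes 67.5% were down.

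The promoter stretches of the 3 transport protein genes are shown because the genes went in different directions. They are the 250 bases before the annotated RefSeq start on GRCh38.p14, 5′ to 3′ in the direction of the gene. The stretches lie at chr19:17470274-17470523, plus strand (SLC27A1), at chr9:128340277-128340526, plus strand (SLC27A4) and at chr15:50181946-50182195, plus strand (SLC27A2). Capitals, here and below, mark exact matches on either strand to 5 motifs. These were AGGTCA, the core site of many nuclear receptors, the direct repeat of this site with 1 base between (the consensus PPAR response element, which also counts as a core site), TCACNCCAC, close to the sterol regulatory element, CCAAT, and TATAAA.
SLC27A1: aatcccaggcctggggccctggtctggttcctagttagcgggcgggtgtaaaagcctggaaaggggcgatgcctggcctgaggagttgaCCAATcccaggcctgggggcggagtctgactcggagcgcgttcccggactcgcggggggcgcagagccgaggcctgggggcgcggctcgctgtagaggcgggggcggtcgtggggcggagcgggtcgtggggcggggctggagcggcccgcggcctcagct
SLC27A4: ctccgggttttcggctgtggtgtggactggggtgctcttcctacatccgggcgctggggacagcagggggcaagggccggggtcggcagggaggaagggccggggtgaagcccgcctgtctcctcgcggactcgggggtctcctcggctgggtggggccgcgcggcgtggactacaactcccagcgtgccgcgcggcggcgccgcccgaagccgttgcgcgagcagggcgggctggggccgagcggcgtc
SLC27A2: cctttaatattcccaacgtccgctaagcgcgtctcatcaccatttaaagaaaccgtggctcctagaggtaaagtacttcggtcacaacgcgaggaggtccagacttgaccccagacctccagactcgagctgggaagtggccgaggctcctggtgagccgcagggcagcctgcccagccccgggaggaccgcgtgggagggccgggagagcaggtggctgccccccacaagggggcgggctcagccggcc
SLC27A1 held 1 CCAAT, and the other two held no match to any of the 5 motifs. GC content was 72.8% in the SLC27A1 stretch, 75.2% in the SLC27A4 stretch and 64.4% in the SLC27A2 stretch. Both stretches of genes listed as up were thus richer in G and C than that of the gene listed as down. The SLC27A1 stretch lies inside the gene's span given above, so it precedes an inner start.

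The carnitine shuttle was listed as down in each of its 3 members. CPT1B, the muscle form of the outer membrane carnitine palmitoyltransferase, CPT1C, its brain form in the endoplasmic reticulum, and CPT2, the inner membrane enzyme that releases acyl-CoA in the matrix, made up the group. The list of this role held 6 genes. CPT1A, the liver form, was not listed, nor were the carrier SLC25A20 and the acetyltransferase CRAT. Over all genes, 25.2% of the background were listed, and 67.5% of listed genes were down. An unlisted gene may be unexpressed, may have missed the authors' criteria or may lie in no pathway of the table. The exons of CPT1B overlap the readthrough gene CHKB-CPT1B over 2722 bases on the same strand, and those of CPT2 overlap a transcript on the opposite strand over 1151 bases. It is not given here whether reads were counted by strand, so both calls are uncertain as to their gene.

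Beta-oxidation, which shortens acyl-CoA in repeated rounds, had 2 members up and 6 down. All of the split lay in the first reaction, run by acyl-CoA dehydrogenases of different chain length. ACADS (ENSG00000122971; chromosome 12, 120725735 to 120740008), for short chains, and ACADVL (ENSG00000072778; chromosome 17, 7217125 to 7225273), for very long chains, were up. ACADM (ENSG00000117054; chromosome 1, 75724347 to 75787575), for medium chains, ACADL, for long chains, and ACADSB, for short branched chains, were down. ACADVL exons overlap DLG4, a gene on the opposite strand listed as down, over 85 bases. The members acting after this reaction were down as well. HADH is the mitochondrial 3-hydroxyacyl-CoA dehydrogenase, EHHADH the peroxisomal bifunctional enzyme and a classic PPAR alpha target in rodents, and ECI2 an isomerase for unsaturated chains, whose exons overlap C6orf201 on the opposite strand over 1242 bases. In all, exons of 18 of the 36 members overlap another annotated gene. Of a list of 18 genes of mitochondrial beta-oxidation, 7 were listed, 2 up and 5 down; the subunits of the trifunctional protein HADHA and HADHB were not among them. Of 12 peroxisomal genes 4 were listed, all as down. They were EHHADH, the fatty acid importer ABCD3, and ACOX2 and SCP2, which act in the oxidation of branched chains and bile acid precursors and which the rule left out. Beside both lists stand the 25.2% of background genes that were listed and the 67.5% of listed genes that were down.

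Chain elongation was listed as down throughout its 5 members. ELOVL6 lengthens the palmitate made by fatty acid synthase, ELOVL2 acts on long polyunsaturated chains and ELOVL3 on saturated and monounsaturated very long chains. HACD1 and HACD2 are dehydratases of the elongation cycle. The other 8 genes of a list of 13, among them ELOVL1, ELOVL5 and TECR, were not listed. Over all genes, 25.2% of the background were listed and 67.5% of the listed genes were down. The desaturases FADS2, which makes the first double bond in the synthesis of polyunsaturated fatty acids, and SCD5, a stearoyl-CoA desaturase expressed in brain and pancreas, were down. SCD and FADS1 were not listed. FADS2 exons overlap FADS1 over 490 bases on the opposite strand, and FEN1, a DNA repair nuclease also listed as down, over 49 bases on the same strand.

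The promoter stretch of ELOVL6 (chr4:110198616-110198865, minus strand) is shown because it was the only 1 of 41 member promoters with a nuclear receptor core site.
ELOVL6: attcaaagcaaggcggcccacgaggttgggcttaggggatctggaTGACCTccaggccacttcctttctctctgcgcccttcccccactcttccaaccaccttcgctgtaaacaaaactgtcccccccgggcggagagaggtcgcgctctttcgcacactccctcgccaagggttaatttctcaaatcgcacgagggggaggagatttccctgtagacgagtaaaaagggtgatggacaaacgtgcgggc
Its capitals mark AGGTCA on the opposite strand, starting 205 bases before the gene's start. Over all 35116 promoters of the RefSeq table, 12.1% held AGGTCA in this window. The exact direct repeat was in none of the 41 member promoters and in 6 of all promoters (0.0171%). No match says only that these letters are not in this window. A match of CCAAT was found in 12 member promoters, of 1 gene listed as up and 9 listed as down, while 32.0% of all promoters held it.

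Of a list of 10 genes of malonyl-CoA formation and fatty acid synthesis 2 were listed, beside 25.2% of all background genes. OLAH was up, and ACACB, which the rule left out with pyruvate metabolism, was down. OLAH (ENSG00000152463; chromosome 10, 15032227 to 15073852) releases medium-chain fatty acids from fatty acid synthase and is known from lactating mammary gland. Fatty acid synthase FASN, ACACA and the citrate enzyme ACLY were not listed. The remaining 4 thioesterases and depalmitoylases were down. THEM4 is a mitochondrial acyl-CoA thioesterase that also binds AKT, PPT2 is a lysosomal thioesterase, and ABHD17B and ABHD17C remove palmitate from membrane proteins. On a list of 10 acyl-CoA and lysosomal thioesterases, THEM4 and PPT2 were the 2 listed genes. PPT2 exons overlap the readthrough gene PPT2-EGFL8 over 1449 bases. Of a list of 16 lipogenic target genes of the transcription factor SREBP1, 4 were listed, all as down: ACACB, ACSL3, ELOVL6 and FADS2. This list's 4 of 16 lay near the 25.2% of all background genes listed, and 67.5% of all listed genes were down. That list was drawn up with earlier results for these genes known.

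The perilipins, which coat lipid droplets, were split. PLIN2 (ENSG00000147872; chromosome 9, 19108375 to 19149290), found on droplets in most cells and stabilised by stored lipid, was listed as up. PLIN4 (ENSG00000167676; chromosome 19, 4502180 to 4518465), which coats nascent droplets, and PLIN5 (ENSG00000214456; chromosome 19, 4522531 to 4535224), which ties droplets to mitochondria in oxidative tissue, were down. PLIN4 and PLIN5 lie 4065 bases apart on the same strand, and the next nearest pair of members, HADH and ELOVL6 on chromosome 4, lay 2010670 bases apart. PLIN5 exons overlap another annotated gene on the same strand over 1047 bases. PLIN1, the form of fat cells, was not listed.

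The promoter stretches of the perilipins are shown for the same reason as those of the transport proteins: PLIN2 at chr9:19127493-19127742, minus strand, PLIN4 at chr19:4518487-4518736, minus strand and PLIN5 at chr19:4535225-4535474, minus strand.
PLIN2: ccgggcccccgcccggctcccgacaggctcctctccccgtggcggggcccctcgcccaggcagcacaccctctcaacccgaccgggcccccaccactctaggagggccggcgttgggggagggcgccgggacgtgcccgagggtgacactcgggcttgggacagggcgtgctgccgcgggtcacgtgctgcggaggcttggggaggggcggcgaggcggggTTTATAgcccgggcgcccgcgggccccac
PLIN4: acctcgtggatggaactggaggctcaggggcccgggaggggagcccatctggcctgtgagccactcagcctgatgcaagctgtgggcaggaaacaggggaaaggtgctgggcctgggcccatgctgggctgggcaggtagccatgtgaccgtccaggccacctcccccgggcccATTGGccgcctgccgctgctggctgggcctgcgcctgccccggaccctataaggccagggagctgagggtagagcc
PLIN5: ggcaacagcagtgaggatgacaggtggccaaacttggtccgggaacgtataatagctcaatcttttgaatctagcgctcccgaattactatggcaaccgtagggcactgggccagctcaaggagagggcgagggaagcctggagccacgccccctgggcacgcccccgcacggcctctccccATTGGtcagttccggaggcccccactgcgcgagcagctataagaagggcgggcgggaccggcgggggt
The PLIN2 stretch lies inside the gene's span given above, so it precedes an inner start. This stretch, at 78.0% GC, held TATAAA on the opposite strand 29 bases before that start and no CCAAT. PLIN4, at 69.2% GC, and PLIN5, at 63.2%, each held CCAAT on the opposite strand, beginning 76 bases before the start of PLIN4 and 68 bases before that of PLIN5. TATAAA was in the window of 3 member promoters, of ACADVL, PLIN2 and FABP6, and in 10.7% of all promoters.

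Intracellular carriers and the remaining genes of PPAR signaling were as follows. DBI, the acyl-CoA binding protein, was down, and so was FABP6, the ileal bile acid binding protein, a family member that carries bile acids rather than fatty acids. The stretch before FABP6 (chr5:160229256-160229505, plus strand) is shown because it was the only member promoter with TCACNCCAC, which 0.883% of all promoters held.
FABP6: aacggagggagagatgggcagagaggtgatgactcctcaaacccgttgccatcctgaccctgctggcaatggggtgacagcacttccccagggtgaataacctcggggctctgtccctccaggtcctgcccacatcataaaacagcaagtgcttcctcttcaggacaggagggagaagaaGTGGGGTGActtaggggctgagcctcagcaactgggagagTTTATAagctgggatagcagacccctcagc
Its capitals mark this motif, starting 70 bases before the start, and TATAAA, both on the opposite strand. No other gene of a list of 10 binding proteins was listed, FABP1, FABP4 and FABP5 included. The collagenase MMP1, which cleaves fibrillar collagen, was up.

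Of a list of 8 receptors and coactivators 2 were in the authors' deposited table, near the 25.2% of all background genes. Neither PPARA, PPARD nor PPARG was listed. Both listed genes were down: RXRA, the usual partner of PPARs, which the rule left out, and the coactivator PPARGC1A, which drives mitochondrial genes. Of 20 textbook target genes of PPAR alpha in liver 6 were listed, with PLIN2 up and ACADM, CPT2, EHHADH, SLC27A2 and the pantetheinase VNN1 down. CPT1A, ANGPTL4, PDK4 and FGF21 of that list were not. None of 6 lipoprotein genes of the PPAR pathway, APOA1 and APOC3 among them, was listed. Of 7 genes of ketogenesis and sterol handling in that pathway 2 were listed, both as down (CYP27A1 and SCP2), and of 6 glycerol and glucose genes 1, PCK2, as up. Of 7 droplet and adipocyte genes 1 was listed as up and 3 as down, and of 5 growth and survival genes 3, all as up. Of 14 genes of omega-oxidation and aldehyde oxidation 2 were listed, both as down (ALDH3A2 and ALDH7A1). Beside each of these lists stand the 25.2% of background genes that were listed and the 67.5% of listed genes that were down.

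Of the 8 genes that the rule left out, 1 was up, the mitochondrial gluconeogenic enzyme PCK2. The other 7 were down: ACACB, RXRA, ACOX2, SCP2, the sterol hydroxylase CYP27A1 and the aldehyde dehydrogenases ALDH3A2 and ALDH7A1.

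None of the 6 pathways was enriched at an authors' p below 0.05, a mark reached by 26.9% of the 327 pathways in the authors' deposited table. Fatty acid metabolism had the lowest of the 6, with 2 genes up and 19 down of 61 background genes (rich factor 1.37, p = 0.132, q = 0.341 in the authors' deposited table). The rich factor divides the fraction of changed genes that fall in a pathway by the same fraction of background genes. PPAR signaling had 6 up and 20 down of 80 (rich factor 1.29, p = 0.170 in the authors' deposited table). Fatty acid degradation had 2 up and 13 down of 44 (rich factor 1.35, p = 0.197 in the authors' deposited table). Fatty acid elongation had 0 up and 10 down of 37 (p = 0.668 in the authors' deposited table). Biosynthesis of unsaturated fatty acids had 0 up and 8 down of 28 (p = 0.559 in the authors' deposited table). Fatty acid biosynthesis had 1 up and 3 down of 14 (p = 0.561 in the authors' deposited table). These pathways share genes: 20 of the 36 members are under 2 or more of them.

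Of the other pathways, Metabolic pathways held the most members, with 3 up and 13 down, where the authors' deposited table has 119 up and 273 down. Under Peroxisome all 5 members were down (ACSL3, ACSL4, ECI2, EHHADH and SLC27A2), where the authors' deposited table has 5 genes up and 19 down in all. Under Valine, leucine and isoleucine degradation, which shares the acyl-CoA dehydrogenases, 1 member was up and 4 down, against 2 up and 18 down for all its genes in the authors' deposited table. Under Thermogenesis 5 members were down, where the authors' deposited table has 12 up and 54 down. Under Insulin resistance SLC27A1 and SLC27A4 were up and CPT1B and SLC27A2 down, and the authors' deposited table has 21 up and 30 down. Under Ferroptosis both members, ACSL3 and ACSL4, were down in a pathway with 9 up and 8 down in the authors' deposited table. Another 8 members, the perilipins, DBI, FABP6, ABHD17B and ABHD17C among them, were under no further pathway.

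The direction of the members moved with the base composition of their transcripts, as it did over all listed genes. The longest GENCODE transcript had a median GC content of 57.3% in the 8 members listed as up (43.1 to 64.6) and 42.3% in the 28 listed as down (37.4 to 62.4), and the ranges overlapped. Over all listed genes the medians were 55.2% for those up and 43.6% for those down. In the tertile of listed genes with the lowest GC content, up to 43.1%, 1 of 16 members was up (6.25%), against 6.84% of all 746 genes there. In the middle tertile 2 of 8 members were up (25.0%), against 33.0% of all. In the highest tertile, above 53.1%, 5 of 12 members were up (41.7%), against 57.8% of all. In each tertile the members' share was at or below that of all listed genes, over 8 to 16 members. The part of base composition in the directions was not tested.

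**Figure D2:**
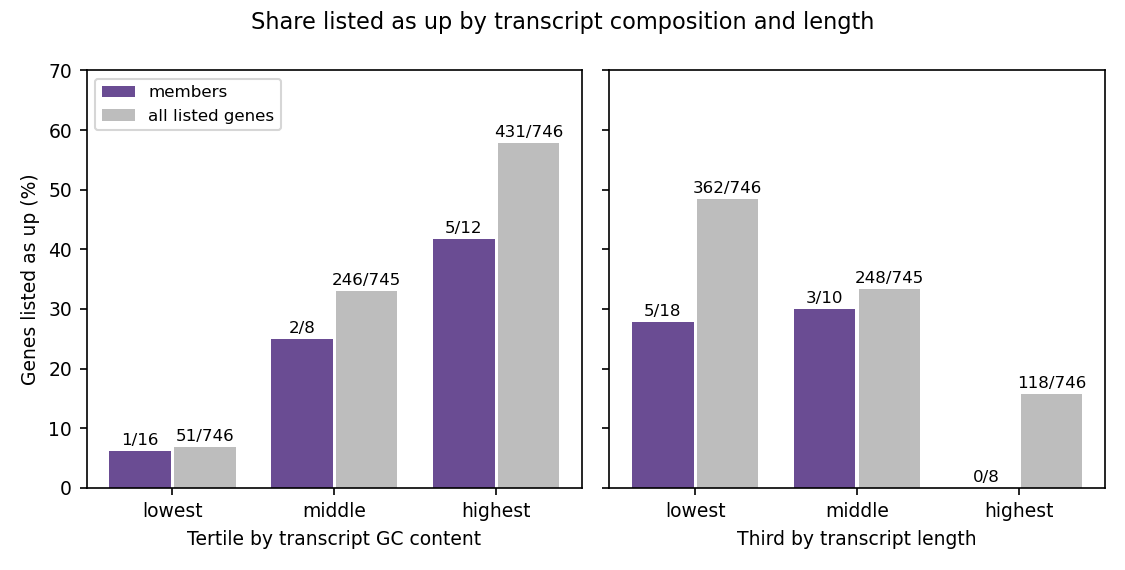
The bars give the percentage of genes listed as up among the members (purple) and among all listed genes (grey), in tertiles of all listed genes by GC content (left) and by length (right) of the longest transcript; numbers above the bars are genes up over genes in the tertile. Both shares climb with GC content, to 41.7% for members and 57.8% for all genes in the highest tertile, and no member of the longest tertile was up.

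Within families, composition went with direction in 2 cases and against it in 1. The acyl-CoA dehydrogenases listed as up had a transcript GC content of 64.6% (ACADS) and 58.8% (ACADVL). Those listed as down had 41.0% (ACADM), 41.1% (ACADL) and 38.9% (ACADSB). For the transport proteins the values were 59.8% (SLC27A1) and 60.9% (SLC27A4) for those up and 48.9% (SLC27A2) for the one down. The perilipins ran the other way, with 48.9% for PLIN2, listed as up, and 62.4% for PLIN4 and 61.8% for PLIN5, both down. The carnitine enzymes were all down over a range of 38.5% (CPT2) to 57.6% (CPT1C), and the elongases over 39.6% (ELOVL2) to 51.4% (ELOVL3).

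**Figure D3:**
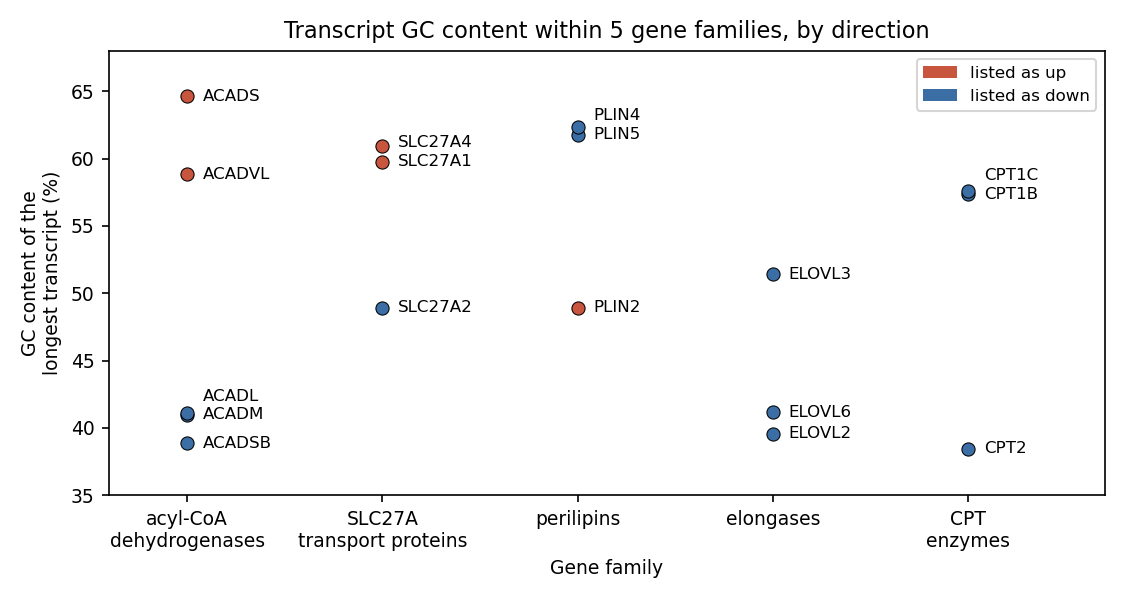
Points give the GC content of the longest transcript, in percent, of the listed members of 5 gene families, red for genes listed as up and blue for genes listed as down after ezetimibe. The red points lie above the blue ones among acyl-CoA dehydrogenases and transport proteins and below them among perilipins.

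The members whose direction was the less frequent one for their composition can be named, after their values were seen. OLAH was up at 43.1% GC, in the tertile where 51 of 746 listed genes were up. PLIN2 (48.9%) and MMP1 (43.4%) were up in the middle tertile, where 246 of 745 were. In the tertile of highest GC content CPT1B, CPT1C, PPT2, FADS2, FABP6, PLIN4 and PLIN5 were down, where 431 of 746 listed genes were up. Of these, CPT1B, PPT2, FADS2 and PLIN5 are among the genes with overlapping neighbours given above. PLIN4 exons overlap HDGFL2 on the opposite strand over 32 bases and FABP6 exons an antisense transcript over 109 bases. CPT1C exons overlap no other annotated gene.

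**Figure D4:**
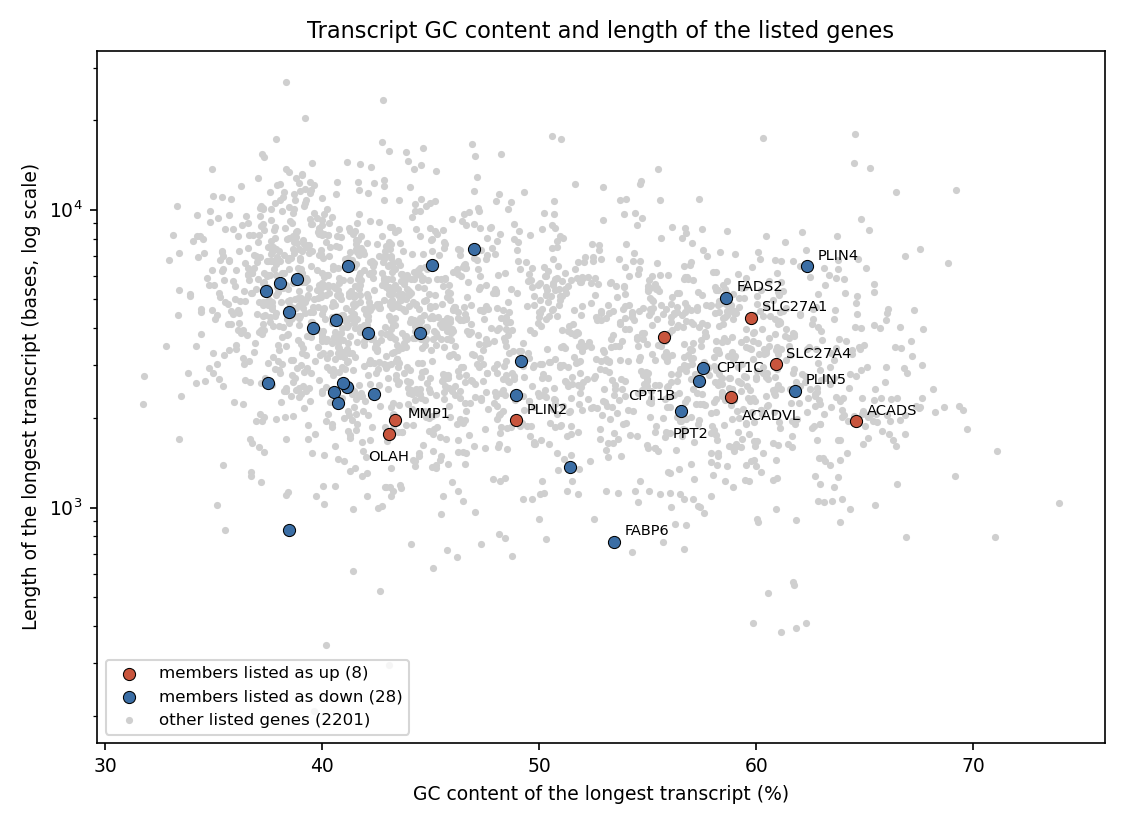
Each point is a listed gene, by GC content (percent) and length (bases, log scale) of its longest transcript; red and blue points are members listed as up or as down, and grey points are the other listed genes. Of the members, 7 of the 8 up and those down in the highest tertile of GC content are named; the unnamed blue points lie mostly at low GC content.

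The longest transcript had a median of 2162 bases in members listed as up (1767 to 4343) and 3026 in members listed as down (769 to 7354). In the tertile of listed genes with the longest transcripts none of 8 members was up, against 15.8% of all 746 genes there. In the middle tertile 3 of 10 members were up, against 33.3% of all, and in the shortest 5 of 18 (27.8%), against 48.5% of all. The share up was lowest in the longest tertile both for members and for all listed genes. The members' shares in the middle and shortest tertiles were too close, over so few genes, to give an order. Promoter composition differed less. The 250 bases before the start had a median GC content of 69.2% in 6 promoters of members listed as up and 67.2% in 35 promoters of members listed as down. Over all listed genes these medians were 65.6% for those up and 63.6% for those down.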

How the data were processed

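RNA of 1 ezetimibe culture and 1 control culture was sequenced by the authors. The submitters' processing notes name HISAT2 2.0.4 and StringTie 1.3.0, with their settings, the build, the annotation and the depth not given here. By its name, the authors' deposited table comes from edgeR, run by the authors with a threshold not given here, and KEGG enrichment. Per the file headers it holds, per pathway, gene numbers, a p-value, a q-value and an enrichment ratio (the rich factor), all printed as the authors'. No read count was analysed here.

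Members were found by their pathway rows and counted by direction, with exact 95% intervals (SciPy 1.17.1). By rule every member is named, except 2 that are not reported here; the role lists are textbook genes. Members and lists were chosen with earlier results of these data known, so no test was made. All 185 list symbols were matched through Ensembl IDs. GC content, length, coordinates and exon overlaps came from GENCODE release 29, for 2237 listed genes; the authors' annotation may differ. RefSeq promoters matched 30 of 36 members by symbol (41 starts). In 33 of 41, the 30 bases after the start occurred in a GENCODE transcript of the gene. Of the 8 promoters printed, 6 met this check, so not every printed start is one that GENCODE also holds. The printed stretches of PLIN2, SLC27A1, FABP6 and ELOVL6 lie inside the GENCODE span of their gene, so each precedes an inner start and not the outermost one. Motifs were searched in the 250 bases before the start. The parsing and motif search were tested on simulated data. Python 3.11.15, NumPy 2.4.6, pandas 2.3.3 and Matplotlib 3.10.9 were used.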

Additional observations from a re-analysis of the deposited data

How the results depend on the processing

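The members' share listed as up, 22.2% (8 of 36), stayed within its interval in 6 of 7 alternatives. It was 20.5% with no subtraction of pathways, 12.0% (3 of 25, interval 2.55 to 31.2) in the fatty acid pathways alone, 23.8% (5 of 21) in PPAR signaling alone, and 22.2% without genes under more than 20 pathways, since no member is under more than 12. Chosen after seeing the data, it was 27.8% (5 of 18) without the 18 members whose exons overlap another gene, and 18.2% (6 of 33) without the 3 members of PPAR signaling grouped apart from the lipid roles. It moved to 10.0% (2 of 20, interval 1.23 to 31.7) among members under 2 or more of the 6 pathways, which leaves out 6 of the 8 members listed as up. In this set and in the fatty acid pathways alone, unlike the full set, the interval lay below the 32.5% of all listed genes. Every gene of this set is also in the fatty acid pathways alone, and no test is read from these intervals. The share up of all listed genes, 32.5%, was 32.4% without genes under more than 20 pathways. It moved to 29.7% (183 of 616) for genes in KEGG metabolism pathways, which are a smaller set. The intervals of 2.55 to 31.2 and 1.23 to 31.7 both included 29.7%. No paired analysis was possible because each condition has 1 library and the result comes from no test; for the same reason no replicate could be left out. With no levels or depth, neither the size of a change nor its counting error can be given.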
